A study of Mus musculus with 9 samples.

Results

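The 72 genes described here encode the heat shock proteins and DnaJ proteins of mouse embryonic fibroblasts (MEFs), the chaperones that fold proteins in the cytosol, the endoplasmic reticulum (ER) and the mitochondria. They were taken by symbol from the 24341 genes of the deposited tables: every gene whose name begins with Hspa, Hspb, Hspd, Hspe, Hsph, Dnaja, Dnajb or Dnajc and a digit, or with Hsp90. Of these, 27 have an Hsp name and 45 a Dnaj name. By the textbook location of their proteins, 41 were assigned to the cytosol and nucleus, 13 to the ER, 8 to mitochondria and 6 to other sites, and 4 were not assigned.

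RNA-Seq was performed on 9 MEF samples of strain C57BL/6 grown in DMEM with serum, 3 of each genotype: WT, Atm-/- (without the DNA damage kinase ATM) and Sirt6-/- (without the deacetylase SIRT6). The labels also list P53-/- and Atm-/-P53-/- mice among the sources of MEFs, and the methods of the study name immortalized Atm-/-;p53-/- and Sirt6-/- MEFs obtained from separate laboratories. Neither says which of these were sequenced, so that the line, its p53 status and its genotype cannot be told apart. Nor do the labels say whether the samples of a genotype were separate cultures or embryos, and p-values then measure only the spread between these samples.

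Each chaperone family has its own task. Hsp70 proteins (Hspa genes) hold stretches of unfolded chain in a cycle driven by ATP, J proteins (Dnaj genes) bring them their clients and start ATP hydrolysis, and nucleotide exchange factors such as Hsph1 release the client. Hsp90 proteins finish the folding of kinases and receptors, small heat shock proteins (Hspb genes) keep unfolded chains soluble, and Hspd1 with its lid Hspe1 forms the folding chamber of mitochondria. Stress in the cytosol acts on these genes through heat shock factor 1, and unfolded protein in the ER acts through ATF6 and XBP1, which read short promoter elements.

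Those elements are shown for the chaperones that carry them, and whether they bear on the differences between the genotypes was not tested. Promoter windows (250 bases before to 50 after the start, RefSeq, GRCm38.p6) matched 58 members, and the 250 bases before the start were searched on both strands. The ER stress element, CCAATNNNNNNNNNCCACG, was in 35 of 27025 genes with a window (0.13%). It was in 3 of the 11 ER chaperones that had a window, Hspa5, Hsp90b1 and Dnajc3. None of the 35 cytosolic and 5 mitochondrial members with a window held it. Of 20 ER partner genes with a window, 5 held it (25%), Calr, Canx, Pdia6, Creld2 and Syvn1. It lay 65 to 47 bases before the start of Hspa5 (chr2:34772020-34772048, plus strand) and 105 to 87 bases before that of Dnajc3 (chr14:118937822-118937850, plus strand). Hsp90b1, on the minus strand, held it at chr10:86705633-86705661 and, reading on the other strand, at chr10:86705528-86705556. Capitals mark the fixed bases of the element, with 5 bases on each side, in the direction of transcription.
Hspa5: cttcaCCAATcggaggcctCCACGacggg
Dnajc3: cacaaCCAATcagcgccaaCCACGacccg
Hsp90b1, distal: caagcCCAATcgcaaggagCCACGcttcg
Hsp90b1, proximal: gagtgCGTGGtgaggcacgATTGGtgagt

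The heat shock element, searched as GAANNTTCNNGAA or TTCNNGAANNTTC, was in 139 of the 27025 genes with a window (0.514%). It was in 3 of the 58 members with a window, Hspd1, Hspe1 and Dnajb6. Only exact matches within the 250 bases counted, for this and the other elements. A member without a match may thus still hold a variant or a more distant element. Hspa1a, Hspa1b, Hsph1, Dnajb1 and Hspb1 had a window and no exact match. The 14 members without a window, among them Hsp90aa1, Hsp90ab1, Hspa8 and Hspa9, were not searched for any element. Hspd1 and Hspe1 lie head to head on chromosome 1 and shared 1 stretch, chr1:55088054-55088081, which held 2 overlapping matches and is shown as read toward Hspe1. The matches lay 89 to 72 bases before the start of Hspe1, and 144 to 127 bases before the start used for Hspd1. They lie inside the Hspd1 gene span (55077833 to 55088243), so the Hspd1 start used is an internal one. The element of Dnajb6 was at chr5:29735847-29735869. Capitals mark the units GAA and TTC. The second form of the ER stress element, ATTGGNCCACG, was in 10 of the 27025 genes (0.037%) and in no member with a window. These matches describe letters and were not tested for binding.
Hspe1 and Hspd1: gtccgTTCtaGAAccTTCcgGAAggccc
Dnajb6: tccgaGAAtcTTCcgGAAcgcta

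The libraries held 32187040 to 33837949 counted reads, and no pair was identical. In the Sirt6-/- libraries Sirt6 had 4, 5 and 7 reads against 402 to 487 in WT. Atm went against its label: the libraries labelled Atm-/- held 3443 to 3768 Atm reads and WT 1536 to 1627 (log2 fold change 1.04), and counts per gene do not show which exons were read. Trp53, which encodes p53, averaged 14.5 RPKM in the libraries labelled Atm-/-, 111 in WT and 150 in Sirt6-/- (RPKM are reads divided by transcript length and library size). The summed level of 10 fibroblast markers was 6004 to 6517 RPKM in WT, 3058 to 3067 in the libraries labelled Atm-/-, where Lum was at 0, and 7133 to 7201 in Sirt6-/-. Single markers differed from the sum: of the 9 tested, 8 were lower and 1 (Thy1, log2 fold change 1.83) higher in the libraries labelled Atm-/-, and 5 were lower and 4 higher in Sirt6-/- (Thy1 -5.69). A neural list of 4 genes summed to at most 1.60 RPKM in WT but to 27.5 to 32.5 in the libraries labelled Atm-/- and 26.1 to 27.6 in Sirt6-/-, and an epithelial list of 6 genes to 11.1 to 13.9, 28.5 to 31.9 and 8.85 to 11.2. Within the neural list Sox2 averaged 8.11 RPKM in the libraries labelled Atm-/- and 0.0252 in Sirt6-/-, while Map2 and Tubb3 were above WT in both, and most of the epithelial rise was Krt18 (4.85 RPKM in WT, 21.1 in the libraries labelled Atm-/-). Endothelial and immune lists summed to at most 2.43 and 6.65 RPKM in any library. The part of these differences in the results was not tested, and in bulk RNA fewer cells of a type and less RNA per cell cannot be told apart. WT replicate 2 stood farthest from its group (chi-square per gene of 15.1 and 16.4 against the other WT libraries, 5.24 to 6.88 for all other pairs within a genotype).

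In each comparison members changed in both directions. Of the 64 members with enough reads in the comparison of the libraries labelled Atm-/- with WT, 24 were higher, 24 lower and 16 did not pass the test (edgeR's quasi-likelihood test, Benjamini-Hochberg adjusted p under 0.05). Among all 13283 genes tested, 34.7% were higher and 33.6% lower. In Sirt6-/- against WT, 27 of 64 members were higher and 26 lower, beside 39.2% and 37.4% of 13206 genes. Against WT the counts of members were thus close to what the shares of all genes give. Compared directly, the libraries labelled Atm-/- were higher than Sirt6-/- in 20 and lower in 29 of 62 members, beside 38.0% and 37.8% of 13460 genes. Without WT replicate 2 the counts against WT were 25 higher and 24 lower, and 28 higher and 26 lower. Fold changes were scaled by TMM (trimmed mean of M values), which sets them lower by 0.16 on the log2 scale in the first comparison than division by library totals does. With library totals, 31 members were higher and 16 lower in the libraries labelled Atm-/-, and 64.9% in place of 50.8% of all calls were higher. In the other comparisons this shift was 0.09 and 0.06. Both comparisons with WT use the same 3 WT libraries.

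The compartments differed in their counts. Among all genes tested, 34.7% were higher and 33.6% lower in the libraries labelled Atm-/- against WT. In Sirt6-/- against WT these shares were 39.2% and 37.4%. Of the 35 cytosolic and nuclear members tested against WT, 20 were higher and 8 lower in the libraries labelled Atm-/- (median log2 fold change 0.24, all genes 0.02), and 16 were higher and 14 lower in Sirt6-/- (median 0.03). Of the 13 ER members, 2 were higher and 8 lower in the libraries labelled Atm-/- (median -0.43). In Sirt6-/-, 6 were higher and 3 lower (median 0.13). Of the 8 mitochondrial members, 2 were higher and 4 lower in the former (median -0.17), and 1 was higher and 5 lower in the latter (median -0.63). The cytosolic and ER counts in Sirt6-/- and the mitochondrial counts in the libraries labelled Atm-/- are near the shares of all genes. In the direct comparison the libraries labelled Atm-/- were lower in 11 of 13 ER members and higher in none. They were higher in 5 of 8 mitochondrial members and lower in 1. Among all genes tested there, 38.0% were higher and 37.8% lower.

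**Figure D1:**
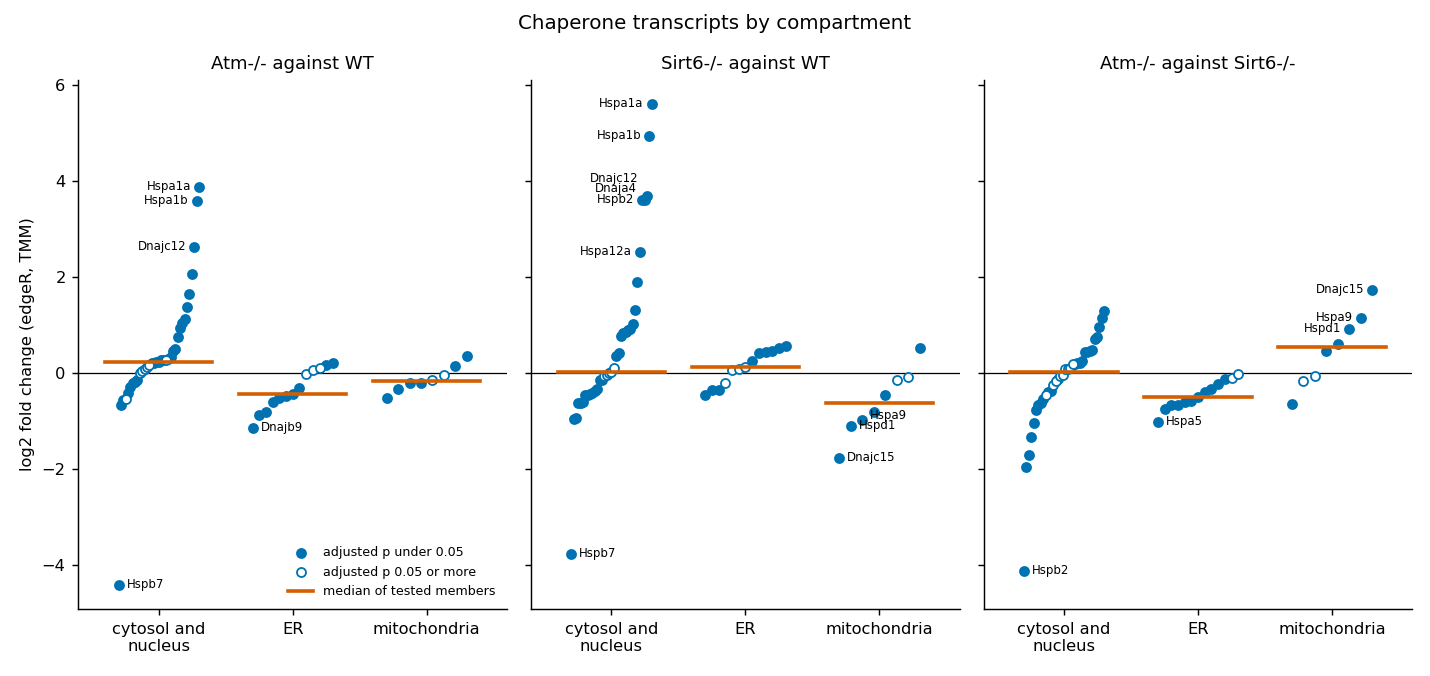
Log2 fold change (vertical axis, edgeR with TMM) of each tested member in the 3 comparisons, grouped by compartment and sorted within it. Filled points passed an adjusted p of 0.05, open points did not, and bars are medians, which in the direct comparison lay at -0.51 for the ER and 0.54 for mitochondria.

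The main ER chaperones were lowest in the libraries labelled Atm-/-. Hspa5 (BiP, chromosome 2 from 34772090 to 34776529), the Hsp70 of the ER lumen and a sensor of unfolded protein there, had 402, 380 and 439 RPKM in WT, 306, 302 and 295 in the libraries labelled Atm-/-, and 588, 577 and 582 in Sirt6-/-. The 3 groups did not overlap, with the libraries labelled Atm-/- at the bottom and Sirt6-/- at the top. Its log2 fold change was -0.60 in the libraries labelled Atm-/- (standard error 0.05, adjusted p = 5.87e-08) and 0.43 in Sirt6-/- (standard error 0.05, adjusted p = 1.82e-06), and it was 2.02-fold lower in the former than in the latter.

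Hsp90b1 (GRP94, chromosome 10 from 86690841 to 86705444), the Hsp90 of the ER, had 403, 388 and 420 RPKM in WT, 372, 370 and 352 in the libraries labelled Atm-/-, and 578, 599 and 592 in Sirt6-/-. It had the same order as Hspa5, again without overlap. The log2 fold changes were -0.31 and 0.46, with adjusted p of 1.43e-05 and 1.73e-07. Hspa13, a microsomal Hsp70 relative named after its values were seen, was the third gene that fell in the libraries labelled Atm-/- and rose in Sirt6-/- (log2 fold changes -0.43 and 0.24).

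Of the J proteins that serve BiP in the ER lumen, Dnajb9, Dnajc3 and Dnajb11 fell in the libraries labelled Atm-/-. Dnajb9 (ERdj4) had 15.6, 14.9 and 14.0 RPKM in WT, 7.23, 7.69 and 7.73 in the libraries labelled Atm-/-, and 11.5, 12.9 and 9.99 in Sirt6-/-. WT was thus highest, and Dnajb9 fell against WT in both (log2 fold changes -1.14 and -0.46). Dnajc3 (p58IPK) had 32.5, 32.0 and 34.9 RPKM in WT, 20.9, 20.3 and 19.7 in the libraries labelled Atm-/- and 28.2, 28.0 and 26.8 in Sirt6-/-, and it fell in both too (log2 fold changes -0.87 and -0.35). Dnajb11 (ERdj3) fell in the libraries labelled Atm-/-, with means of 86.0 RPKM in WT and 66.8 there (log2 fold change -0.53, adjusted p = 1.25e-07). Its mean of 95.4 RPKM in Sirt6-/- did not pass the test against WT (log2 fold change 0.06, adjusted p = 0.239), but did with library totals (0.15, adjusted p = 0.00932).

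Other ER members followed no single direction. Dnajb14, anchored in the ER membrane, fell in the libraries labelled Atm-/- (log2 fold change -0.82) and was at -0.21 in Sirt6-/- (adjusted p = 0.0988; 0.0386 without WT replicate 3). Dnajc1 fell in both (-0.47 and -0.36). Dnajc10 (ERdj5), which reduces disulfide bonds of misfolded proteins, and Dnajc18 rose in both, by 0.17 and 0.42 and by 0.21 and 0.56 on the log2 scale. These were the 2 ER members that rose in the libraries labelled Atm-/-, and that count was 1 without some libraries (WT replicate 1 or 3, labelled Atm-/- replicate 1 or 2) and 5 with library totals. Dnajc1, Dnajc10 and Dnajc18 were named after their values were seen.

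The wider ER folding list of 24 genes (lectins, disulfide isomerases, sensors and targets of the unfolded protein response) had 1 gene higher and 21 lower in the libraries labelled Atm-/- (median -0.31), where 34.7% and 33.6% of all genes were. These counts are under TMM, and the list was not counted with library totals. Canx was called lower (-0.11) although its RPKM were 183, 176 and 178 there and 172, 171 and 175 in WT. Sdf2, Pdia3, Pdia4, Syvn1, Atf6, Eif2ak3, Ddit3 and Atf4 were called lower but overlapped WT. The remaining lower genes lay below WT in every library. In Sirt6-/- the list had 10 higher and 7 lower, beside 39.2% and 37.4% of all genes. In the direct comparison 17 of the 24 were lower in the libraries labelled Atm-/- and 6 higher, beside 37.8% and 38.0% of all genes. The 3 genes named from it by size carry the stress signal rather than fold protein. Xbp1 had 29.0, 27.6 and 34.2 RPKM in WT, 16.4, 13.8 and 18.6 in the libraries labelled Atm-/- and 33.6, 32.2 and 36.2 in Sirt6-/-. It fell in the libraries labelled Atm-/- (log2 fold change -1.06), and its 0.08 in Sirt6-/- did not pass the test (adjusted p = 0.34; 0.0462 without WT replicate 3).

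Ern1 (the sensor IRE1) and Atf6, in contrast, fell in Sirt6-/-, where Hspa5 and Hsp90b1 were highest. Ern1 had 13.9, 18.1 and 14.2 RPKM in WT, 12.8, 12.7 and 13.5 in the libraries labelled Atm-/- and 4.25, 3.90 and 3.85 in Sirt6-/- (log2 fold change against WT -2.03). Atf6 had 17.8 ± 0.73 RPKM in WT (SD, n = 3) and 6.72, 6.57 and 6.19 in Sirt6-/- (log2 fold change -1.54). Its small fall of -0.16 in the libraries labelled Atm-/- was 0.01 with library totals and then did not pass the test. Counts per gene show neither the splicing of Xbp1 nor the cleavage of ATF6.

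**Figure D2:**
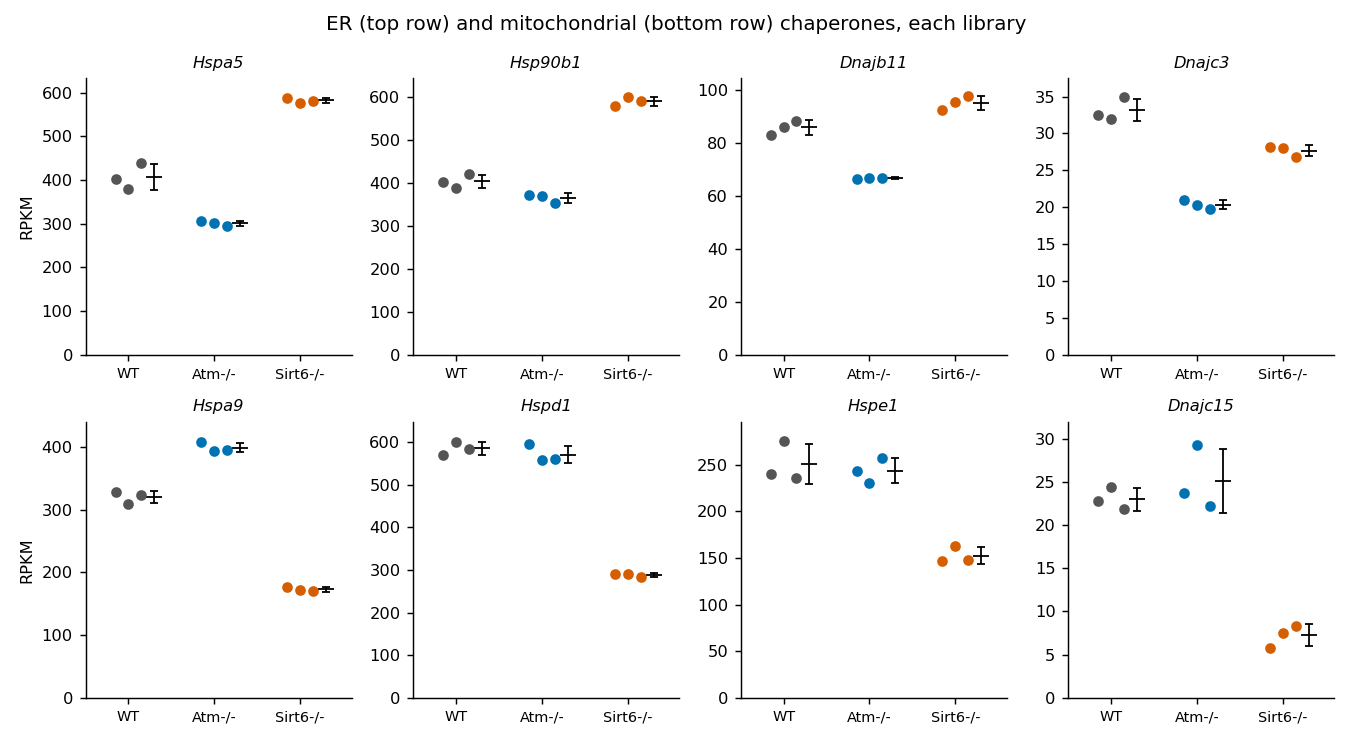
RPKM of 4 ER chaperones (top) and 4 mitochondrial chaperones (bottom) in each library, with the mean and SD of each genotype beside the points (n = 3). Hspa5 and Hsp90b1 are highest in Sirt6-/-, and Hspa9, Hspd1, Hspe1 and Dnajc15 are lowest there.

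Among mitochondrial members, Hspa9 had the genotypes in the reverse order of Hspa5. Hspa9 (mortalin), the Hsp70 of the matrix and the motor of protein import, had 328, 309 and 323 RPKM in WT, 407, 393 and 395 in the libraries labelled Atm-/- and 177, 171 and 170 in Sirt6-/-. No group overlapped another. Hspa9 rose by 0.15 on the log2 scale in the libraries labelled Atm-/- (standard error 0.04, adjusted p = 0.00324), and its log2 fold change in Sirt6-/- was -0.97 (standard error 0.04, adjusted p = 2.68e-11). The direct comparison gave 2.21-fold more in the libraries labelled Atm-/-.

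The chaperonin pair fell in Sirt6-/-. Hspd1 (Hsp60, chromosome 1 from 55077833 to 55088243) had 570, 602 and 585 RPKM in WT, 595, 558 and 561 in the libraries labelled Atm-/- and 290, 292 and 283 in Sirt6-/-. Hspe1 (Hsp10, chromosome 1 from 55088148 to 55091317) had 240, 276 and 236 RPKM in WT, 243, 230 and 257 in the libraries labelled Atm-/- and 147, 163 and 148 in Sirt6-/-. Both were low in Sirt6-/- alone, with log2 fold changes of -1.11 (adjusted p = 4.67e-12) and -0.80 (adjusted p = 2.65e-08) against WT. Under TMM both also passed the test as lower in the libraries labelled Atm-/- (-0.20 each). There the RPKM overlapped those of WT, and with library totals the values were -0.03 and -0.04 and did not pass. The call of Hspe1 was also lost without replicate 2 of the libraries labelled Atm-/- (adjusted p = 0.0597). Hspd1 and Hspe1 exons overlap, and the strand of counting was not given in the sources used here.

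Dnajc15, a J protein of the import motor in the inner membrane, had 22.8, 24.4 and 21.8 RPKM in WT, 23.7, 29.3 and 22.3 in the libraries labelled Atm-/- and 5.82, 7.55 and 8.30 in Sirt6-/-. Only Sirt6-/- stood apart, with a log2 fold change of -1.76 (standard error 0.14, adjusted p = 3.12e-08), and the value of -0.04 in the libraries labelled Atm-/- did not pass the test (adjusted p = 0.779) and was 0.13 with library totals. Dnaja3 (Tid1), the matrix partner of Hspa9, fell in both (-0.53 and -0.45). Dnajc11 rose in the libraries labelled Atm-/- (0.36), Dnajc19 fell there (-0.32), and Dnajc30 rose in Sirt6-/- (0.52). These last 4 genes were named after their values were seen.

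Of 14 further genes of mitochondrial import, folding and proteolysis, 4 were higher and 5 lower in the libraries labelled Atm-/-, and 4 were higher and 8 lower in Sirt6-/-. The first pair of counts is near the shares of all genes (34.7% and 33.6%), and in Sirt6-/- those shares were 39.2% and 37.4%. The import channel gene Timm23 had 199, 208 and 188 RPKM in WT, 158, 166 and 166 in the libraries labelled Atm-/- and 104, 109 and 111 in Sirt6-/-. It fell in both (-0.44 and -0.97). The protease subunit gene Spg7 was at 14.5 ± 0.27 (SD, n = 3), 18.2 ± 0.56 and 31.2 ± 0.98 RPKM and rose in both (0.16 and 1.02). The first of these calls was lost without WT replicate 1, 2 or 3 or labelled Atm-/- replicate 2 or 3 (adjusted p up to 0.0931) and with no filter (0.0616). Grpel2, a nucleotide exchange factor of mortalin, rose in the libraries labelled Atm-/- from a mean of 5.14 RPKM in WT to 11.5 (adjusted p = 3.39e-08), and its log2 fold change of -0.08 in Sirt6-/- did not pass the test (adjusted p = 0.423).

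The ratio of Hspa5 to Hspa9 within a library, which no scaling between libraries can move, was 1.27 ± 0.07 (SD, n = 3) in WT, 0.755 ± 0.012 in the libraries labelled Atm-/- and 3.37 ± 0.05 in Sirt6-/-. Summed over all members of each compartment, the ratio of ER to mitochondrial RPKM was 0.835 ± 0.050, 0.667 ± 0.016 and 2.03 ± 0.02. These sums rest mostly on the abundant genes described above and do not show a shift of every member. In WT, Hspa5 and Hsp90b1 averaged 407 and 403 of 1071 ER RPKM. Hspd1, Hspa9 and Hspe1 averaged 586, 320 and 251 of 1284 mitochondrial RPKM. No library of one genotype reached the range of another for either ratio. For Hspa5 over Hspa9 this follows from the values above, since each gene separated the genotypes and in reverse order. It adds no further support. With 3 libraries against 3, an exact two-sided permutation test could not go below 0.10, and none was run.

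**Figure D3:**
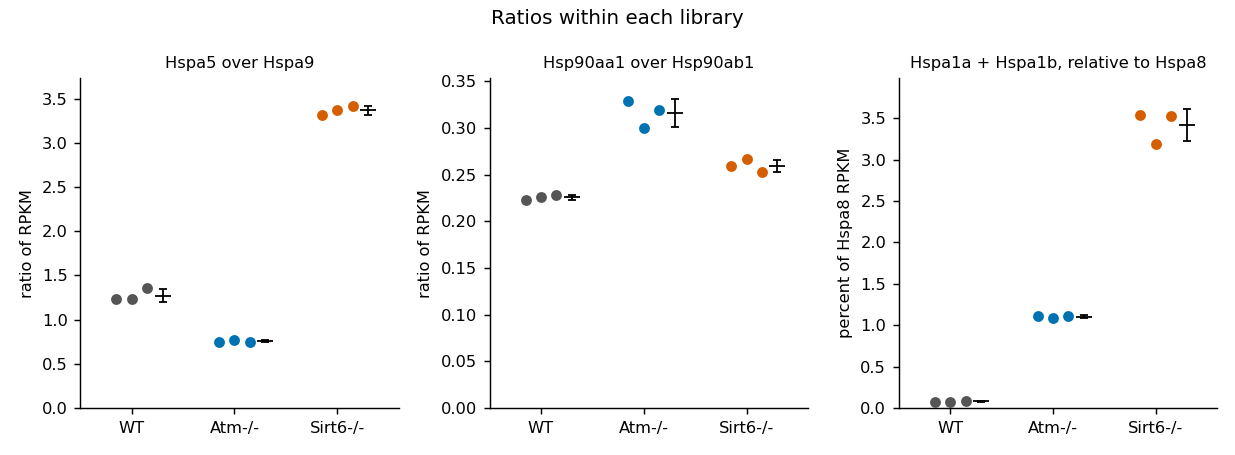
Ratios of RPKM within each library, with the mean and SD of each genotype beside the points (n = 3). Hspa5 over Hspa9 spans 0.746 to 3.42 across the libraries, and Hspa1a plus Hspa1b reach 3.54% of Hspa8 in Sirt6-/-.

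The abundant cytosolic chaperones fell in Sirt6-/-. Hsp90ab1 (chromosome 17 from 45567778 to 45573261), the constitutive cytosolic Hsp90 and the highest member in RPKM in WT, had 1883, 1913 and 1857 RPKM in WT, 1876, 1840 and 1834 in the libraries labelled Atm-/- and 1331, 1309 and 1303 in Sirt6-/-. Hspa8 (Hsc70, chromosome 9 from 40801276 to 40805202), the constitutive Hsp70, had 1598, 1774 and 1692, then 1696, 1651 and 1600, then 1318, 1336 and 1305 RPKM in the same order. In both genes the Sirt6-/- libraries lay below all others, with log2 fold changes of -0.61 and -0.44 against WT (adjusted p of 1.97e-09 and 3.96e-07). The libraries labelled Atm-/- overlapped WT in both, and their log2 fold changes of -0.19 and -0.20 became -0.03 and -0.03 with library totals and then did not pass the test.

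Hsp90aa1, the inducible Hsp90, moved apart from its constitutive paralog. It had 419, 433 and 423 RPKM in WT, 617, 553 and 585 in the libraries labelled Atm-/- and 345, 349 and 329 in Sirt6-/-, with no overlap between the groups (log2 fold changes 0.30 and -0.40). Its ratio to Hsp90ab1 in RPKM was 0.226 ± 0.003 in WT, 0.316 ± 0.015 in the libraries labelled Atm-/- and 0.259 ± 0.007 in Sirt6-/- (SD, n = 3). Hspa4 (Apg-2), an exchange factor for Hsp70, took the same course as Hsp90aa1, with means of 99.5, 135 and 77.0 RPKM (log2 fold changes 0.28 and -0.46).

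Hsph1 (Hsp110), another exchange factor, was high in the libraries labelled Atm-/- only. It had 36.9, 42.9 and 40.4 RPKM in WT, 99.0, 88.3 and 90.7 in the libraries labelled Atm-/- and 48.2, 44.7 and 45.0 in Sirt6-/-. It rose 2.07-fold in the libraries labelled Atm-/- (adjusted p = 1.03e-09), and the log2 fold change of 0.11 in Sirt6-/- did not pass the test (adjusted p = 0.0878) but did without WT replicate 2 (0.15, adjusted p = 0.0132) and with library totals (0.20, adjusted p = 0.00556). Hspa4l, the third gene of this family and named after its values were seen, rose in both (1.39 and 0.92).

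The inducible Hsp70 genes were low in WT and rose in both other groups. Hspa1b (chromosome 17 from 34956429 to 34959238) had 1.11, 1.24 and 1.38 RPKM in WT, 17.4, 16.5 and 16.4 in the libraries labelled Atm-/- and 41.8, 39.1 and 41.0 in Sirt6-/-. Its neighbour Hspa1a (chromosome 17 from 34969359 to 34972156) had 4, 9 and 11 reads in WT, 124, 142 and 127 in the libraries labelled Atm-/- and 432, 320 and 478 in Sirt6-/-. The order was the same for both genes, with WT lowest and Sirt6-/- highest and no overlap. Hspa1b was 12.0-fold higher in the libraries labelled Atm-/- and 30.7-fold higher in Sirt6-/- than in WT, and the log2 fold changes of Hspa1a were 3.88 and 5.60. Since both genes encode nearly the same transcript, how reads were split between them is uncertain.

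Even so the inducible pair stayed a small fraction of cytosolic Hsp70: together they amounted to 0.0788% ± 0.0085 of Hspa8 RPKM in WT, 1.10% ± 0.01 in the libraries labelled Atm-/- and 3.42% ± 0.20 in Sirt6-/- (SD, n = 3). Dnajb1 (Hsp40), the J protein that works with inducible Hsp70, had 34.0, 38.0 and 32.8 RPKM in WT, 40.5, 37.7 and 42.9 in the libraries labelled Atm-/- and 35.9, 37.8 and 35.0 in Sirt6-/-. It passed no test in the 3 comparisons, with log2 fold changes of 0.05, -0.04 and 0.10. With library totals it was higher in the libraries labelled Atm-/- than in WT (0.21, adjusted p = 0.0112) and than in Sirt6-/- (0.15, adjusted p = 0.0139), and the latter also passed without labelled Atm-/- replicate 2. Hspa2, which is best known from the testis, rose in both (0.46 and 0.85).

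**Figure D4:**
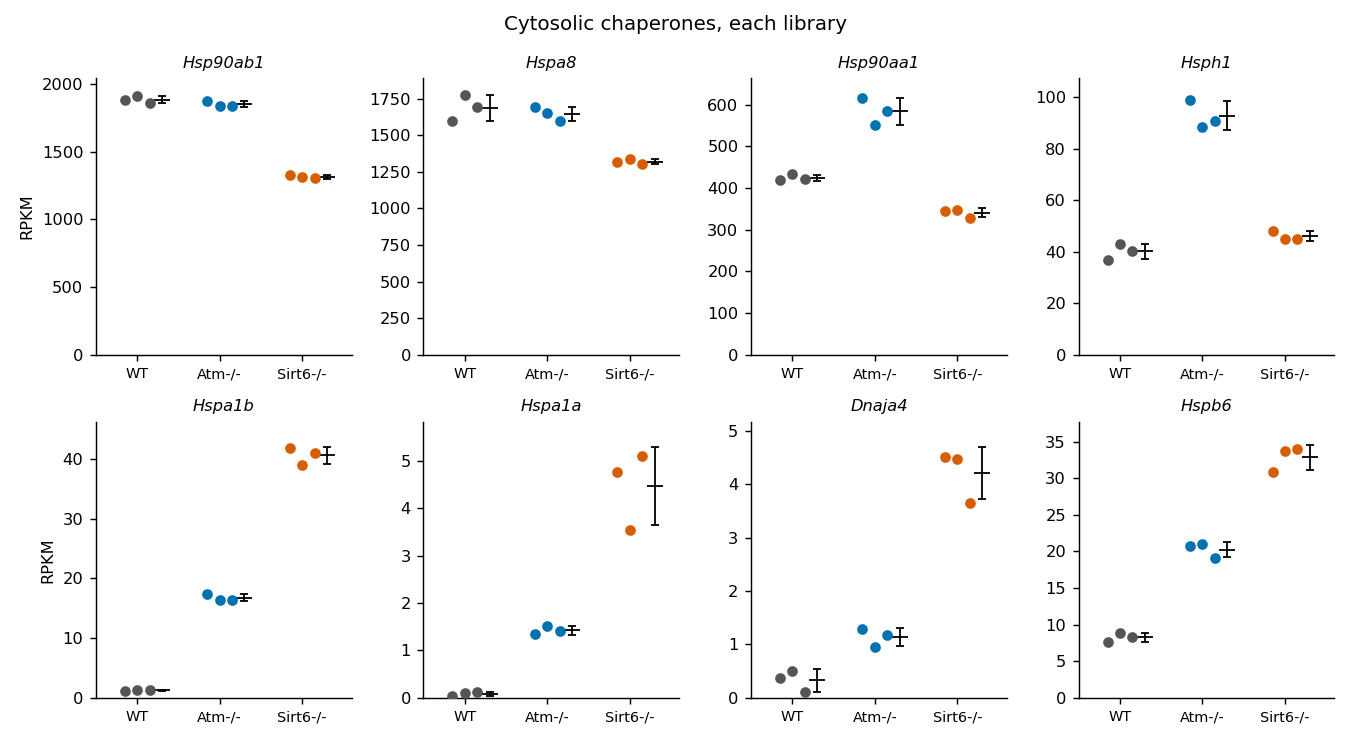
RPKM of 8 cytosolic chaperones in each library, with the mean and SD of each genotype beside the points (n = 3). The abundant Hsp90ab1 and Hspa8 are lowest in Sirt6-/-, whereas Hspa1a, Hspa1b, Dnaja4 and Hspb6 are highest there.

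Transcripts of Hsf1 and Hsf2 differed from WT by small amounts. Hsf1, the main regulator of the heat shock response, had 37.0, 39.5 and 37.1 RPKM in WT, 48.1, 46.1 and 46.8 in the libraries labelled Atm-/- and 35.3, 38.0 and 35.3 in Sirt6-/-. Its log2 fold changes were 0.15 and -0.15 (adjusted p of 0.0207 and 0.0234), and both calls were lost without single libraries (WT replicate 1 or 3 or labelled Atm-/- replicate 1 for the former, Sirt6-/- replicate 1 or 3 for the latter). With library totals the former was 0.31 (adjusted p = 8.72e-05), and the latter was -0.06 and did not pass (adjusted p = 0.323). Hsf2 had means of 10.6, 15.2 and 7.85 RPKM and passed in both (0.35 and -0.53). Hsf4, named after its values were seen and best known from the lens, had 276 to 370 reads in WT, 64 to 72 in the libraries labelled Atm-/- and 14 to 41 in Sirt6-/-, and fell in both (-2.34 and -3.69). Hsbp1, which binds and restrains heat shock factor 1, fell in the libraries labelled Atm-/- (-0.42) and had 0.03 in Sirt6-/- (adjusted p = 0.594; with library totals 0.12, adjusted p = 0.0395). Of this list of 6 genes, 2 were higher and 3 lower in the libraries labelled Atm-/-, near the shares of all genes (34.7% and 33.6%). Of the 5 tested in Sirt6-/- none was higher and 4 were lower, beside 39.2% and 37.4% of all genes. A transcript level does not report the activity of the factor.

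Small heat shock proteins gave some of the widest differences. Hspb1 (Hsp27) had 26.0, 27.2 and 28.0 RPKM in WT, 36.6, 34.7 and 57.9 in the libraries labelled Atm-/- and 43.9, 50.4 and 51.9 in Sirt6-/-. It rose in both (0.51 and 0.76), although the first value rested in part on labelled Atm-/- replicate 3, without which it was 0.24 (adjusted p = 0.0244), and it missed the threshold with the DESeq2 Wald test (adjusted p = 0.0669). The direct difference of -0.24 did not pass (adjusted p = 0.0933), but it did without that library (-0.51) and with no filter (adjusted p = 0.0184). Hspb6 (Hsp20), named after its values were seen, rose in both, with means of 8.26, 20.2 and 32.9 RPKM (1.13 and 1.90).

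Hspb8 (Hsp22), which works with Bag3 in the removal of misfolded protein, had means of 53.7, 40.9 and 51.5 RPKM and fell in the libraries labelled Atm-/- (-0.55). Its fall of 0.15 on the log2 scale in Sirt6-/- lost the call without Sirt6-/- replicate 1 or 2 (adjusted p up to 0.0652) and with library totals (-0.06). Hspb7, a small heat shock protein of heart muscle, had 98, 60 and 82 reads in WT, 6, 5 and 1 in the libraries labelled Atm-/- and 11, 4 and 3 in Sirt6-/-. It fell in both (-4.41 and -3.76; -4.52 for the latter without Sirt6-/- replicate 1). Muscle markers (5 genes) summed to at most 0.51 RPKM in every library, with Myog at 0 in all of them.

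Hspb2 was high in Sirt6-/- alone. It had 2.50, 2.33 and 3.36 RPKM in WT, 1.70, 2.07 and 2.54 in the libraries labelled Atm-/- and 36.1, 32.5 and 37.1 in Sirt6-/- (log2 fold change against WT 3.60, adjusted p = 4.13e-12). In the libraries labelled Atm-/- it did not pass the test (-0.54, adjusted p = 0.0839), but passed when all 9 samples entered 1 fit (0.0187) or with edgeR's exact test (0.0486). Its exons (chromosome 9 from 50751072 to 50752354) overlap those of Cryab on the opposite strand, the gene of alpha-B-crystallin, so that reads of the pair cannot be told apart without strand. Cryab itself had 212, 170 and 175 RPKM in WT, 30.8, 32.7 and 32.2 in the libraries labelled Atm-/- and 511, 538 and 546 in Sirt6-/-. It fell in the former (-2.70) and rose in the latter (1.43).

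Among cytosolic J proteins, the largest rises were in genes of low level. Dnaja4 had 37, 51 and 10 reads in WT, 128, 96 and 114 in the libraries labelled Atm-/- and 439, 434 and 368 in Sirt6-/- (log2 fold changes 1.65 and 3.61). Dnajc12, a helper of the aromatic amino acid hydroxylases, had 25, 12 and 10 reads in WT, 112, 118 and 92 in the libraries labelled Atm-/- and 198, 234 and 195 in Sirt6-/- (2.63 and 3.68). Both followed the order of the inducible Hsp70 genes, and with single libraries left out the values in the libraries labelled Atm-/- ranged from 1.22 to 2.13 and from 2.39 to 3.13. Hspa12a, a distant Hsp70 relative, had 12 to 26 reads in WT, 59 to 107 in the libraries labelled Atm-/- and 86 to 134 in Sirt6-/- (2.06 and 2.53).

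A pair of J proteins of ribosomes had the genotypes in the same order as Hspa9. Dnajc2 (MPP11), which sits on the ribosome beside Hsp70, had 54.6, 59.5 and 57.6 RPKM in WT, 78.9, 78.0 and 84.9 in the libraries labelled Atm-/- and 32.8, 28.9 and 32.8 in Sirt6-/-. Dnajc21, which acts in the maturation of the large ribosomal subunit, had 27.0, 27.8 and 26.8 RPKM in WT, 37.0, 35.3 and 32.6 in the libraries labelled Atm-/- and 16.4, 15.5 and 13.8 in Sirt6-/-. Neither gene had an overlap between groups, and they rose by 0.33 and 0.20 in the libraries labelled Atm-/- and had log2 fold changes of -0.95 and -0.93 in Sirt6-/-. Dnaja1, a general J protein of the cytosol, rose in the libraries labelled Atm-/- (means of 44.6 RPKM in WT and 57.5 there, log2 fold change 0.21) and differed by 0.01 in Sirt6-/- (adjusted p = 0.864).

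Some members of other sites fell in both. Dnajc5 (cysteine string protein of secretory vesicles) had 48.9, 49.7 and 50.9 RPKM in WT, 38.0, 37.4 and 39.4 in the libraries labelled Atm-/- and 26.4, 27.2 and 25.8 in Sirt6-/- (-0.55 and -1.00). Dnajc6 (auxilin, which uncoats clathrin vesicles, mainly in nerve cells) had 75, 48 and 83 reads in WT, 4, 6 and 2 in the libraries labelled Atm-/- and 12, 26 and 23 in Sirt6-/- (-4.19 and -1.80). Dnajc6 was lowest in the libraries labelled Atm-/-. The neural marker list was above WT both there and in Sirt6-/-. Hspb11, a protein of cilia in spite of its name, was high in Sirt6-/- alone, with 7.69 ± 0.62, 9.81 ± 0.95 and 28.8 ± 1.7 RPKM (SD, n = 3; log2 fold change 1.82 in Sirt6-/-). Dnajc28 had 0.639, 0.469 and 1.65 RPKM on average and rose in Sirt6-/- (1.28). Its -0.61 in the libraries labelled Atm-/- did not pass (adjusted p = 0.0598), but did without labelled Atm-/- replicate 2, with all 9 samples in 1 fit and with edgeR's exact test.

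In all, 8 members entered no fit. Dnajb8, Dnajc5g and Hspb3 had 0 reads in every library, which allows up to 0.0887 to 0.0932 CPM (CPM, counts scaled to equal library totals; the limit is 3 reads and covers counting error only). Dnajb3 had at most 6 reads, Dnajb7 5, Dnajc5b 2 and Hspb9 8. Dnajb13, a J protein of sperm and cilia, had 3, 14 and 11 reads in the libraries labelled Atm-/- and 0 in all 6 others. Its exons overlap those of Ucp2 on the opposite strand, so these few reads cannot be assigned to Dnajb13 without strand. Dnajc22, which was tested against WT alone, had 31, 31 and 33 reads in WT, 8, 2 and 4 in the libraries labelled Atm-/- and 0, 2 and 0 in Sirt6-/-.

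The chaperonin CCT and prefoldin together fold actin and tubulin. Of their 14 tested genes, 8 were higher and 4 lower in the libraries labelled Atm-/- (median 0.15). Among all genes these shares were 34.7% and 33.6%. All 4 lower genes overlapped WT: Tcp1 (-0.21), Cct8 (-0.19), Pfdn2 (-0.20) and Pfdn6 (-0.15). These falls are near the TMM shift of 0.16, and Tcp1 and Cct8 were not checked with library totals. In Sirt6-/-, 1 of the 14 was higher and 12 lower (median -0.39), beside 39.2% and 37.4% of all genes. Directly compared, 13 of 14 were higher in the libraries labelled Atm-/- and 1 lower (median 0.64), beside 38.0% and 37.8% of all genes. The prefoldin gene Pfdn6 had 91.9, 89.1 and 88.0 RPKM in WT, 85.2, 93.4 and 93.1 in the libraries labelled Atm-/- and 50.6, 50.8 and 48.6 in Sirt6-/- (log2 fold change against WT -0.93), and Pfdn2 was 0.81 lower on the same scale. Both overlapped WT in the libraries labelled Atm-/-, where their small falls did not pass with library totals (0.02 and -0.04) and were lost without several single libraries. Pfdn1 rose in the libraries labelled Atm-/- (0.65) and was at 0.01 in Sirt6-/- (adjusted p = 0.901).

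A list of 26 genes held cochaperones of cytosolic Hsp70 and Hsp90 and also Cryab, described above. Of these, 9 were higher and 10 lower in the libraries labelled Atm-/-, and 5 were higher and 15 lower in Sirt6-/-. The counts in the libraries labelled Atm-/- are near the shares of all genes (34.7% and 33.6%), and in Sirt6-/- 39.2% of all genes were higher and 37.4% lower. Fkbp5, an Hsp90 partner that restrains steroid receptors, had 15.9, 16.0 and 15.5 RPKM in WT and 8.05, 7.79 and 6.74 in Sirt6-/- (log2 fold change -1.15). Its 0.04 in the libraries labelled Atm-/- did not pass (adjusted p = 0.539), but 0.20 with library totals did. Tomm70a, the receptor to which cytosolic Hsp90 and Hsp70 deliver mitochondrial proteins, had 67.8, 73.5 and 73.0 RPKM in WT, 66.0, 61.2 and 65.3 in the libraries labelled Atm-/- and 29.6, 29.7 and 28.0 in Sirt6-/-. It fell in both (-0.32 and -1.38).

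**Figure D5:**
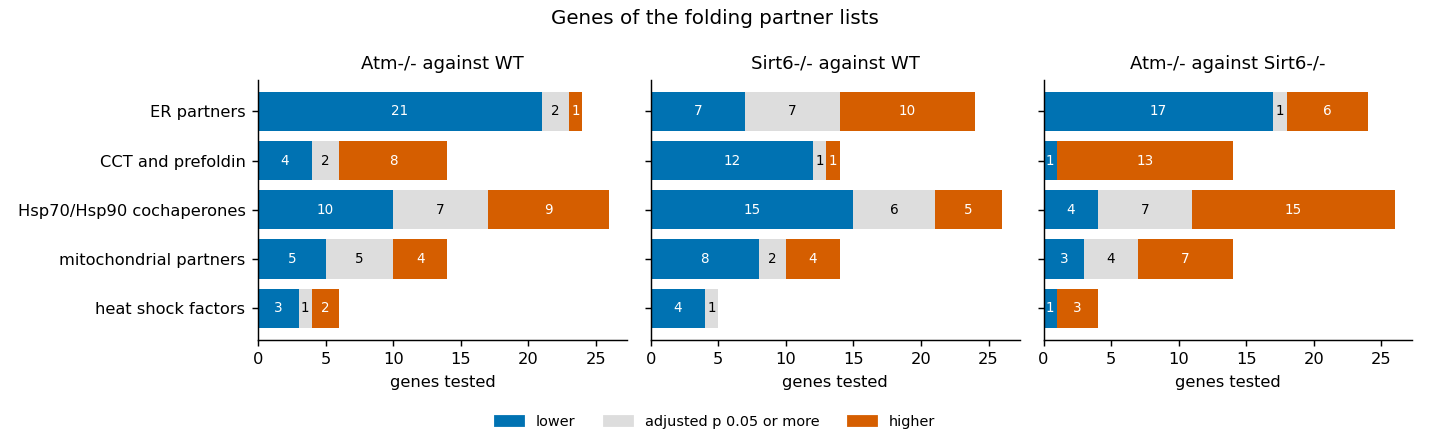
Number of tested genes (horizontal axis) that were lower, higher or not past an adjusted p of 0.05 in each list of folding partners, for the 3 comparisons. With TMM scaling, the ER list is mostly lower in the libraries labelled Atm-/- (21 of 24 against WT), and the CCT and prefoldin list mostly lower in Sirt6-/- (12 of 14 against WT).

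Both comparisons with WT rest on the same WT libraries, and members called in opposite directions in them are given side by side. Hspa5, Hsp90b1 and Hspa13 of the ER fell in the libraries labelled Atm-/- and rose in Sirt6-/-. Hspa9 of mitochondria and Hsp90aa1, Hspa4, Dnajc2, Dnajc7 and Dnajc21 of the cytosol and nucleus rose in the former and fell in the latter. Their direct differences follow in large part from that choice and are given as sizes: -1.01 for Hspa5, -0.75 for Hsp90b1 and -0.66 for Hspa13, and between 0.43 (Dnajc7) and 1.29 (Dnajc2) for the others. Dnajb1, Dnajb6, Dnajb12, Dnajc14 and Dnajc17 passed in neither comparison with WT. Dnajc7, Dnajc22 and, of the latter genes, all but Dnajb1 were named after their values were seen.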

How the data were processed

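The authors deposited, for each of the 9 samples, the whole-number read count of each of 24341 genes with a transcript length, and RPKM that they made from these counts, the length and a read total. The labels name oligo(dT) selection and build mm10, and the aligner and the counter were not given in the sources used here. Counts were tested and RPKM used for levels. Each pair of genotypes was fitted with edgeR 4.0.16 in R 4.3.3 over all genes (filterByExpr, TMM, glmQLFit with a prior count of 0.125, glmQLFTest, Benjamini-Hochberg adjusted p under 0.05). Libraries held 32187040 to 33837949 reads. Samples were grouped by genotype label. The procedure was tested on simulated counts.

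Alternatives were DESeq2 1.42.0 size factors and its Wald test, library totals, no filter, at least 10 counts in every sample, 1 fit over all 9 samples, the replicate number as a block, edgeR's exact test, a 2-fold threshold, and each library left out in turn. Same-numbered libraries did not deviate together (mean correlations of -0.02, 0.03 and 0.05), so the numbers were not taken as pairs. Named members were a core list of abundant and inducible chaperones, the 5 largest rises and falls in each comparison (adjusted p under 0.05, mean log2 CPM of at least 0, no overlap) and members in no fit. From each partner list the 3 largest changes against WT (mean log2 CPM of at least 3) were named. The members, locations and lists were chosen with earlier results of these data known. Promoter sequences were RefSeq windows on GRCm38.p6, and 14 members had none. By GENCODE M21, exons of 28 members overlap another gene. Intervals and floors cover counting error only.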

Additional observations from a re-analysis of the deposited data

Results flagged for a closer look

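For 4 members the change against WT ran in opposite directions in the libraries labelled Atm-/- and in Sirt6-/-, and the difference was at least 2-fold by a direct test of those libraries (edgeR, quasi-likelihood, over all genes). The log2 difference, libraries labelled Atm-/- minus Sirt6-/-, was 1.29 for Dnajc2, 1.14 for Dnajc21, 1.14 for Hspa9 and -1.01 for Hspa5. In each of the 4 genes all 3 libraries of one group lay beyond all 3 of the other, with WT between them. Atm RNA was higher, not lower, in the libraries labelled Atm-/-, so the direction belongs to the label and not to a checked loss of Atm. The genes were picked for opposite directions against WT, so a direct difference follows in large part from that choice.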

How the results depend on the processing

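Requiring a 2-fold change as well as the adjusted p left 8 members higher and 4 lower in the libraries labelled Atm-/- against WT (cytosol 8 and 1, ER 0 and 1, mitochondria 0 and 0), 11 and 5 in Sirt6-/- against WT (cytosol 9 and 1, ER 0 and 0, mitochondria 0 and 2), and 4 and 9 in the direct comparison (cytosol 2 and 5, ER 0 and 1, mitochondria 2 and 0), since most chaperone differences were smaller than that. The share of all genes passing the same 2-fold cut was not counted, so these counts cannot be set against a background. Library totals moved 3 counts in the first comparison: 4 cytosolic members lower, 5 ER members higher and 1 mitochondrial member lower. The ER members higher in the libraries labelled Atm-/- were 1 with no filter and with the DESeq2 Wald test, and 1 to 2 with single libraries left out, and the mitochondrial members lower in the direct comparison 1 to 2 (2 without Sirt6-/- replicate 2). The cause was not tested.

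With a block for the replicate number, 1 ER member was higher in the libraries labelled Atm-/- in place of 2, and the other counts stayed within 1.5 times. Of the named genes, Pfdn6 and Spg7 in the libraries labelled Atm-/- lost their call against WT (adjusted p of 0.0586 and 0.0622) and the direct difference of Hspb1 gained one (-0.27, adjusted p = 0.0168). The labels do not say what the number means.

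Signs turned only in values near 0 that passed no test in the alternative. With library totals these were Dnajc15 (0.13), Pfdn6 (0.0155) and Atf6 (0.0052) in the libraries labelled Atm-/- and Dnajb1 (0.0545) and Grpel2 (0.0116) in Sirt6-/-. For Dnaja1 in Sirt6-/- the value was -9e-04 with DESeq2 size factors and -0.0023 with the Wald test. With single libraries left out, values ranged from -2e-04 to 0.1102 for Dnajb1 and from -0.1569 to 0.0476 for Dnajc15 in the libraries labelled Atm-/-, and from -0.0191 to 0.0266 for Dnaja1, -0.0918 to 0.0169 for Dnajb1 and -0.0927 to 0.0880 for Pfdn1 in Sirt6-/-. Of the values of single genes under the other settings, 1173 kept sign and call, 13 gained a call and 15 lost it.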
